A study of Homo sapiens with 3 samples.

Results

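Sensing of foreign nucleic acid was examined through 10 genes, DDX58, IFIH1, DHX58, TLR3, TMEM173, MAVS, TICAM1, TBK1, IRF3 and IRF7, in HSC-3 cells, an established line from a human tongue squamous carcinoma. The members were fixed by gene symbol, and 12 probes of the array carried one of them, against 24454 probes and 17556 named genes in all. DDX58 and TICAM1 had 2 probes each and the other genes 1. DDX58 is now named RIGI and TMEM173 is now named STING1. The series holds 3 one-colour arrays, 1 for each condition. The DKK3 group received an expression plasmid for full-length DKK3, a secreted glycoprotein, carrying an HA tag. The GFP group received a plasmid for green fluorescent protein, and the untransfected group received no plasmid. The labels give 24 hours between transfection and RNA extraction, and a medium with 10% serum for all groups. With 1 array a group there was no replicate and hence neither a test nor a p-value. Each intensity below rests on 1 array and each difference on 2, and their precision cannot be estimated.

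The RNA helicases RIG-I (DDX58) and MDA5 (IFIH1) bind viral or other foreign RNA in the cytosol and signal through MAVS on the mitochondrial membrane, while the related helicase LGP2 (DHX58) modulates both. TLR3 detects double-stranded RNA in endosomes and signals through TICAM1 (TRIF), and STING (TMEM173) relays the signal of the cytosolic DNA sensor cGAS. All 3 routes meet at the kinase TBK1, which phosphorylates IRF3 and IRF7, the transcription factors that switch on interferon genes. DDX58, IFIH1, DHX58, TLR3 and IRF7 are also known to be induced by interferon, whereas IRF3 and the adaptors are largely constitutive.

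The detection limit was set at 2 SD over the average of the blank spots, an intensity of 36.6 (DKK3), 33.8 (GFP) and 40.8 (untransfected). 11 of the 12 probes, with at least 1 for each of the 10 genes, were detected on all 3 arrays, and 1 probe of TICAM1 was detected on none. Differences are given as log2 differences of background-corrected, quantile-normalized intensities, and a probe was called where the difference was at least 1 in size (2-fold) and the probe was detected on at least 1 of both arrays. Across all tested probes the robust SD of the differences (scaled median absolute deviation) was 0.084 for DKK3 minus GFP, 0.079 for DKK3 minus untransfected and 0.084 for GFP minus untransfected. This is a spread over probes of all brightnesses, not over replicates. The DKK3 probe itself read 64328 (DKK3), 749 (GFP) and 539 (untransfected), highest in the group labelled DKK3. A treatment label also mentions C2C12, a mouse myoblast line, whereas title and source name the human tongue line. 9 of 9 squamous keratinocyte markers on the array were detected on all 3 arrays, with KRT5 at 12229 (DKK3), 16709 (GFP) and 16548 (untransfected). Of 11 leukocyte and dendritic cell markers 4 were detected (CD3E, LYZ, CSF1R and CD68). CD68 was the brightest of them, at 324.3 (DKK3), 350.2 (GFP) and 277.2 (untransfected). CD3E was detected by 1 of 2 probes, just above the limits at 37.7 (DKK3), 35.4 (GFP) and 45.3 (untransfected). LYZ and CSF1R also lay near the limits. The common leukocyte antigen PTPRC and the plasmacytoid dendritic cell marker CLEC4C were below the limit on all 3 arrays. Of 8 fibroblast markers 2 were detected, DCN (by 1 of 2 probes) and PDGFRB. Of 8 skeletal muscle markers 7 were detected on at least 1 array and 6 on all 3. The brightest, DES, read 91.1 (DKK3), 106.2 (GFP) and 102.4 (untransfected). MYOG read 38.3, 34.9 and 44.1 in the same order, just above the limits. The myoblast factor MYOD1 read 34.9 (DKK3), 32.7 (GFP) and 41.8 (untransfected), above the limit in untransfected cells only. Fewer cells responding and less RNA per cell cannot be told apart in such bulk RNA.

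Of the 10 genes, 2 were 2-fold higher after plasmid transfection, the helicase gene DDX58 and the transcription factor gene IRF7. With the GFP plasmid 2 of 11 tested probes were called higher than in untransfected cells, IRF7 and 1 probe of DDX58, where 0.254% of all tested probes were called. With the DKK3 plasmid 2 of 11 were called higher than in untransfected cells, IRF7 and the other probe of DDX58, where 0.292% of all tested probes were called. Both comparisons use the same untransfected array. Between the DKK3 and GFP arrays none of the 11 probes was called, where 0.256% of all tested probes were. The median difference over the 11 probes was 0.051 for DKK3 minus GFP, 0.12 for DKK3 minus untransfected and 0.072 for GFP minus untransfected, and over all tested probes it was -0.0013, -0.0049 and -0.0029 in the same order.

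**Figure D1:**
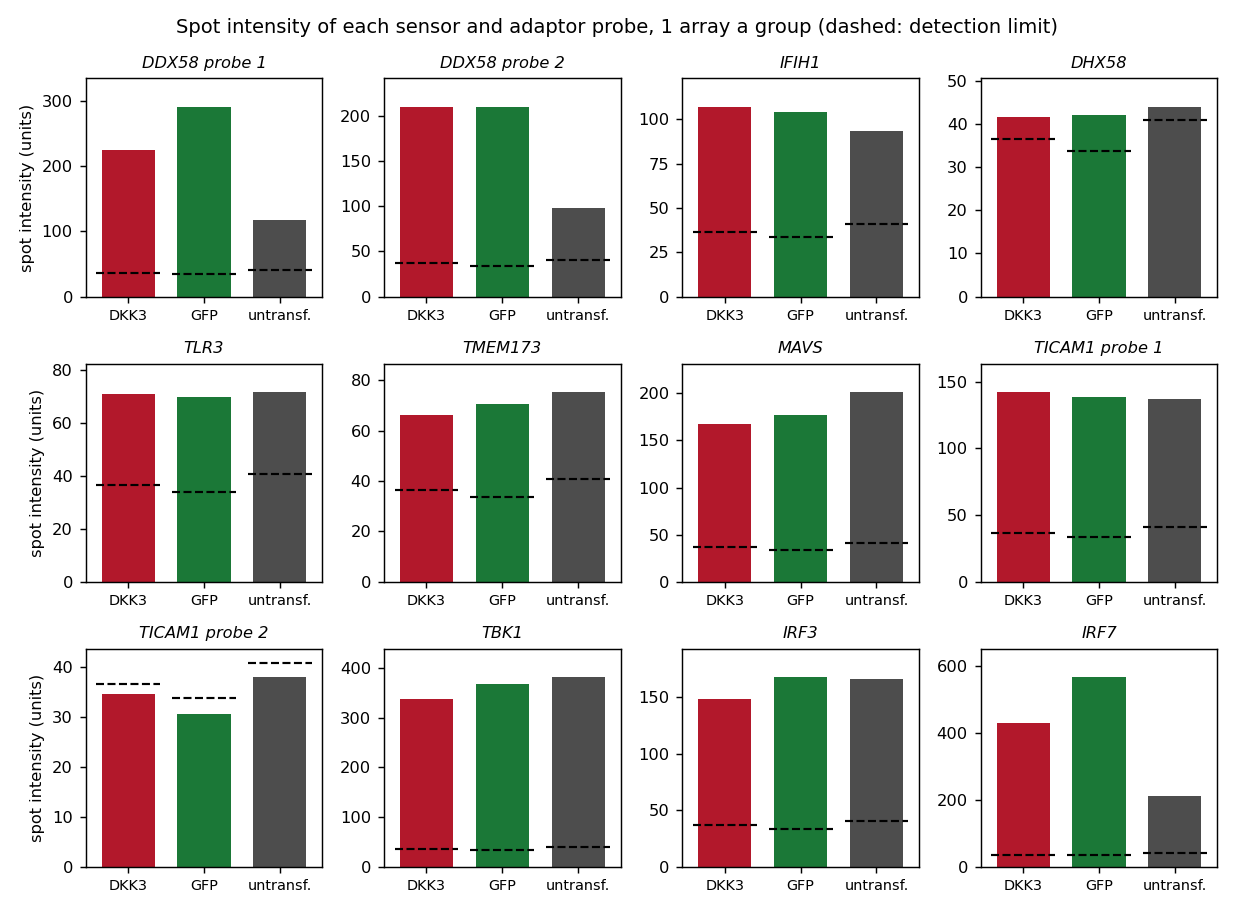
Spot intensity (vertical axis, linear, from 0) of each of the 12 probes on the DKK3, GFP and untransfected arrays, 1 array a group and no error bar. The dashed lines are the detection limits of 36.6, 33.8 and 40.8. Both DDX58 probes and IRF7 stand clearly higher on both plasmid arrays, DHX58 lies just above the limits and probe 2 of TICAM1 below them.

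The promoters of 3 genes known to answer to interferon are shown because these genes differed in their response here, DDX58 with a 2-fold difference and IFIH1 and TLR3 without. The sequences come from RefSeq (GRCh38.p14), whose promoter table matched 6 of the 10 genes (DDX58, IFIH1, TLR3, MAVS, TICAM1 and TBK1). Each run is on the gene's strand, 5′ to 3′, and holds 250 bases before the start and 10 after it. The stretches are chr9:32526187-32526446 on the minus strand for DDX58, chr2:162318675-162318934 on the minus strand for IFIH1 and chr4:186068906-186069165 on the plus strand for TLR3. Capitals mark a pair of GAAA runs, on either strand, with 2 bases of any kind between them (the core of the interferon-stimulated response element, ISRE) in IFIH1 and TLR3, and with 1 base between them in DDX58.
DDX58: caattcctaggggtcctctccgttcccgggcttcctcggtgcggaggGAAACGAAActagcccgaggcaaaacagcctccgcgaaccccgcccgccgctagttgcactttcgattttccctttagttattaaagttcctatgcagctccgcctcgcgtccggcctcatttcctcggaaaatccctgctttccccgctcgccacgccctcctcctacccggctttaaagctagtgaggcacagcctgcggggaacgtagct
IFIH1: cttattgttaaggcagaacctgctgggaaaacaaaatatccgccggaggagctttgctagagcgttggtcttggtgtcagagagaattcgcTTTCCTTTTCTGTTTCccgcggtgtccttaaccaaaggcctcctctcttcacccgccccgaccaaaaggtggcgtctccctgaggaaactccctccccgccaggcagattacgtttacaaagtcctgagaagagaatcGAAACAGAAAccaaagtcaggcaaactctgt
TLR3: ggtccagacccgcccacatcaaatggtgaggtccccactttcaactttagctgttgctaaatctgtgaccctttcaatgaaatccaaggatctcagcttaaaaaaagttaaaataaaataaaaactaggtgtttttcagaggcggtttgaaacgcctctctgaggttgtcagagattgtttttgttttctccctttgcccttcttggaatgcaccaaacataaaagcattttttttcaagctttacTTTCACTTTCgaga

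The ISRE core was present in IFIH1 at 3 places, GAAACAGAAA at -21 to -12 and, on the opposite strand, GAAACAGAAA at -153 to -144 and GAAAAGGAAA at -159 to -150, the last 2 overlapping. TLR3 held GAAAGTGAAA on the opposite strand at -4 to 6, across the start. No ISRE core lay in the table's 300-base windows of DDX58, MAVS, TICAM1 or TBK1, and 3.57% of all 35116 promoter windows held one. DDX58 held GAAACGAAA at -203 to -195, a spacing that was looked for after the sequence had been seen and that 3.12% of windows held. The GAS element TTCNNNGAA, which reads the same on both strands, was found in TLR3 alone of the 6, at -178 to -170 and at -50 to -42, and in 7.66% of all windows. These matches are letters in a window and were not tested as binding sites.

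DDX58 (chr9:32455302-32526196, GRCh38.p14), the RIG-I helicase, was measured by 2 probes whose position within the gene was not used here. Probe 1 read 224.7 intensity units with DKK3 and 290.5 with GFP, against 116.5 in untransfected cells. Probe 2 read 209.6 with DKK3 and 209.3 with GFP, against 97.3 in untransfected cells. On both probes both plasmid arrays lay above the untransfected one, with GFP above DKK3 on probe 1 and the plasmids level on probe 2. GFP minus untransfected was 1.17 for probe 1 (2.26-fold) and 0.98 for probe 2 (1.97-fold), the first just inside and the second just outside the 2-fold rule. DKK3 minus untransfected was 0.99 for probe 1 (1.99-fold) and 1.11 for probe 2 (2.16-fold), so that the probes changed places at the rule. These sizes depended on the treatment of background. With the mean of the blanks subtracted, GFP minus untransfected was 1.64 for probe 1 and 1.51 for probe 2. DKK3 minus untransfected was then 1.41 and 1.68, so that both probes passed the rule in both comparisons. Of the 18076 probes tested between GFP and untransfected cells, 30 and 42 were at least as far up as probe 1 and probe 2, and of the 18121 tested between DKK3 and untransfected cells 41 and 33 were. DKK3 minus GFP had opposite signs on the probes, -0.18 and 0.13, which gives no direction for the gene between the plasmids. The other tested spots in the same row and block as probes 1 and 2 had median GFP minus untransfected differences of -0.021 and -0.0075. In the authors' deposited table probe 1 stood at 93, 110 and 41 and probe 2 at 86, 76 and 31 (DKK3, GFP, untransfected).

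IFIH1 (chr2:162267074-162318684), which encodes the MDA5 helicase, differed far less. Its probe read 107.1 with DKK3 and 104.2 with GFP, against 93.6 in untransfected cells. The 2 plasmid arrays lay close together and a little above the untransfected one. DKK3 minus untransfected was 0.30 (1.23-fold), GFP minus untransfected 0.18 (1.14-fold) and DKK3 minus GFP 0.11. With the mean of the blanks subtracted the differences from untransfected were 0.53 with DKK3 and 0.34 with GFP. At least as far up were 565 of the probes tested for DKK3 minus untransfected (3.12%) and 1300 of those tested for GFP minus untransfected (7.19%).

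DHX58 (chr17:42101411-42112714), the gene of the regulator LGP2, was near the limit of detection. It read 41.7 with DKK3 and 42 with GFP, against 44.0 in untransfected cells, which exceeded the limits of those arrays by 5.12, 8.23 and 3.14 units. The raw order, with the untransfected array highest, turned after normalization, and the detection limit was also highest on that array. DKK3 minus untransfected was 0.085, GFP minus untransfected 0.13 and DKK3 minus GFP -0.049. All 3 values moved with the treatment of background. With the mean of the blanks subtracted they were 0.60, 0.87 and -0.27 in the same order. In the authors' deposited table, which also differs in scaling, they were 0.32, 0.58 and -0.26, where the probe stood at 5, 6 and 4 (DKK3, GFP, untransfected). No size can be given for DHX58 from so dim a spot.

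TLR3 (chr4:186069156-186088073), the endosomal receptor for double-stranded RNA, was detected at 70.9 with DKK3 and 69.8 with GFP, against 71.7 in untransfected cells. The arrays were almost level. DKK3 minus untransfected was 0.12, GFP minus untransfected 0.072 and DKK3 minus GFP 0.051, each under 2 robust SD. In the authors' deposited table TLR3 stood at 19, 18 and 18 (DKK3, GFP, untransfected).

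TMEM173 (chr5:139475533-139482758), the gene of the DNA-pathway adaptor STING, read 66.1 with DKK3 and 70.4 with GFP, against 75.3 in untransfected cells. Its normalized differences were the smallest among the members, at -0.016 for DKK3 minus untransfected, 0.020 for GFP minus untransfected and -0.036 for DKK3 minus GFP, all under 1 robust SD. MAVS (chr20:3846834-3876118), the mitochondrial adaptor of both helicases, read 167.5 with DKK3 and 176.5 with GFP, against 201.4 in untransfected cells. It was the member furthest below 0, at -0.11 for DKK3 minus untransfected and -0.16 for GFP minus untransfected (0.89-fold), both under 2 robust SD. DKK3 minus GFP was 0.053.

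TICAM1 (chr19:4815932-4831712), the adaptor of TLR3, read 142.3 with DKK3 and 138.6 with GFP, against 136.9 in untransfected cells, with probe 1. DKK3 minus untransfected was 0.18 (1.14-fold), GFP minus untransfected 0.051 and DKK3 minus GFP 0.13. Its probe 2 read 34.6 (DKK3), 30.5 (GFP) and 37.9 (untransfected), under the limit on each, and gave no difference. The kinase gene TBK1 (chr12:64452120-64502114) read 338.3 with DKK3 and 368.5 with GFP, against 381.5 in untransfected cells. Its differences were -0.022 for DKK3 minus untransfected, -0.079 for GFP minus untransfected and 0.057 for DKK3 minus GFP, all under 1 robust SD.

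The transcription factors at the end of the route parted. IRF3 (chr19:49659572-49665857) read 148.0 with DKK3 and 167.6 with GFP, against 166.4 in untransfected cells. DKK3 minus untransfected was -0.020, GFP minus untransfected 0.025 and DKK3 minus GFP -0.045, all under 1 robust SD. IRF7 (chr11:612555-615950) read 428.8 with DKK3 and 566.3 with GFP, against 211.6 in untransfected cells, and was the member with the largest difference. GFP minus untransfected was 1.29 (2.45-fold) and DKK3 minus untransfected 1.10 (2.14-fold), with 22 of 18076 and 35 of 18121 tested probes at least as far up. DKK3 minus GFP was -0.19 (0.87-fold), and 968 of 17579 tested probes (5.51%) lay at least as far down. IRF7 and probe 1 of DDX58 were the only members beyond 2 robust SD between DKK3 and GFP, 2 of 11 probes, where 14.3% of all tested probes were. The other tested spots in the row and block of IRF7 had medians of 0.036 for GFP minus untransfected and 0.095 for DKK3 minus untransfected. With block and row medians subtracted IRF7 was at 1.26 and 1.004 in the same order. In the authors' deposited table IRF7 stood at 192, 225 and 89 (DKK3, GFP, untransfected).

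**Figure D2:**
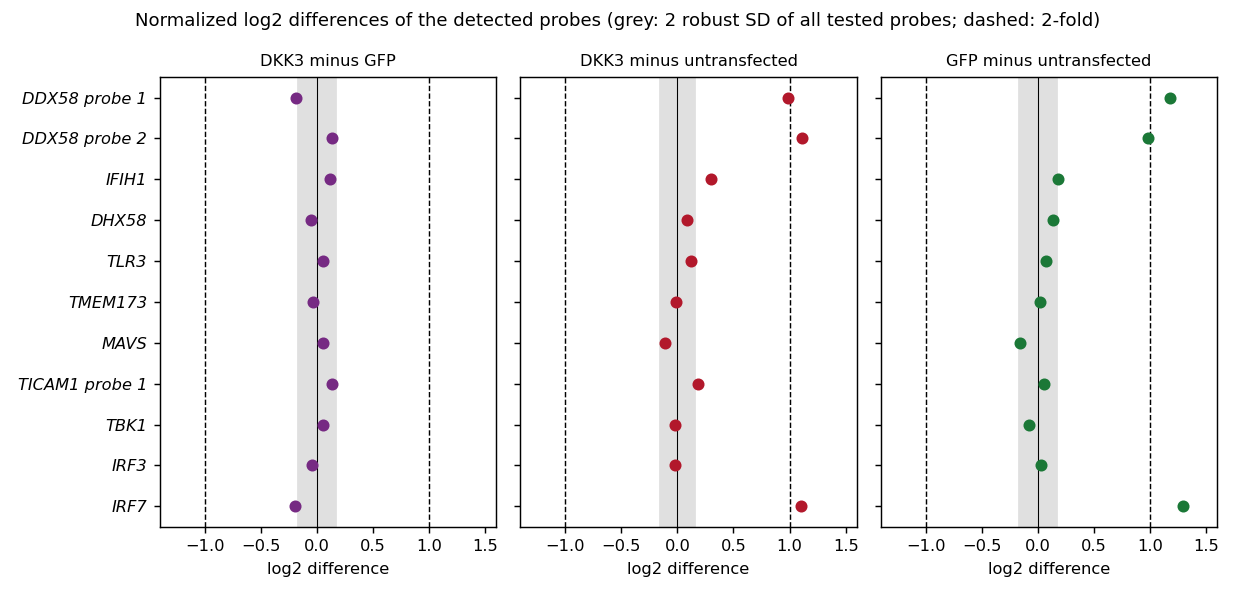
Normalized log2 differences (horizontal axes) of the 11 detected probes for DKK3 minus GFP, DKK3 minus untransfected and GFP minus untransfected, 1 point a probe. Dashed lines mark 2-fold and grey bands 2 robust SD of all tested probes. Only DDX58 and IRF7 reach the 2-fold lines, and none does so between DKK3 and GFP.

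Genes with the most similar pair of differences from the untransfected array were ranked by Euclidean distance among 12995 genes detected on all 3 arrays. Nearest to IRF7 were IFI44 (1.16 with DKK3 and 1.27 with GFP), the ubiquitin-like modifier ISG15 (0.97 and 1.27) and IFIT2 (1.07 and 1.16). Nearest to DDX58, with its probes averaged to 1.05 with DKK3 and 1.08 with GFP, were IFIT2, the steroid-converting enzyme AKR1C2 (0.99 and 1.01) and USP18 (0.97 and 1.03), which removes ISG15 from proteins. Such likeness rests on 3 arrays and on a single shared control.

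Other genes of the pathway were read from fixed lists, with the detected probes of a gene averaged. Of all tested probes only 0.256% (DKK3 minus GFP), 0.292% (DKK3 minus untransfected) and 0.254% (GFP minus untransfected) were called, so that a count of 0 in a list of this size says nothing particular about it. Of 24 detected cofactors and regulators of the RNA helicases, none was called in any comparison, and their median was 0.034 for DKK3 minus GFP, 0.058 for DKK3 minus untransfected and 0.0082 for GFP minus untransfected. The kinase PKR, EIF2AK2, which binds double-stranded RNA, was higher by 0.48 with DKK3 and 0.55 with GFP. TRIM25, a ubiquitin ligase for RIG-I, was higher by 0.39 with DKK3 and 0.24 with GFP. The helicase gene DHX9 was at -0.22 with DKK3 and -0.51 with GFP.

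Of 23 detected genes of cytosolic DNA sensing, none was called, and the medians were 0.0033, 0.026 and -0.042 in the same order of comparisons. The inflammasome sensor AIM2 was at 0.36 with DKK3 and 0.44 with GFP, XRCC5, the Ku80 subunit that binds DNA ends, at 0.42 and 0.36, and the repair protein gene RAD50 at -0.23 and -0.33. The list's range for DKK3 minus untransfected ran from -0.39 to 0.42, with 15 genes above 0 and 8 below. Its low end was CGAS, the sensor upstream of STING, which is named here after its values were seen. CGAS read 219.3 with DKK3 and 301.9 with GFP, against 324.4 in untransfected cells, and differed from untransfected by -0.39 with DKK3 and -0.12 with GFP. Its spot lies in block 22, among the blocks 22 to 24 that were left out in 1 alternative. Of 11 detected genes for endosomal Toll-like receptors and their adaptors none was called either, with medians of -0.046, 0.055 and 0.078. The receptor genes TLR7 and TLR9 were below the limit on all 3 arrays. TLR8 was detected by 1 of 2 probes, near the limit at 41.3 (DKK3), 41.0 (GFP) and 48.7 (untransfected). MYD88, IRAK4 and SARM1 had no probe. The medians thus describe mainly genes other than these receptors. HSP90B1, the endoplasmic reticulum chaperone of Toll-like receptors, was at 0.56 with DKK3 and 0.20 with GFP. LY96, which the list holds although it is not itself an endosomal receptor, was at 0.19 and 0.34, and its spot lies in block 24. UNC93B1, which carries Toll-like receptors to endosomes, was at 0.11 and 0.24.

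Among 22 detected partners of MAVS, STING and TBK1, 1 gene was called, against 0.292% of all tested probes for DKK3 minus untransfected and 0.254% for GFP minus untransfected. It was IFIT3, which is itself an interferon-stimulated gene, at 1.83 with DKK3 and 2.01 with GFP. Its spot read 603.3 with DKK3 and 791.1 with GFP, against 174.2 in untransfected cells. The death-domain adaptor FADD was at 0.55 and 0.59 and the mitochondrial import receptor TOMM70, a docking site of MAVS, at -0.17 and -0.39. The list's medians were -0.0099, 0.044 and -0.013. Nucleases and editing enzymes that limit the cell's own nucleic acid had medians of -0.0021, 0.12 and 0.12 over 14 detected genes, none of them called. SAMHD1, which breaks down deoxynucleotides, was at 0.63 with DKK3 and 0.39 with GFP, DNASE1L1 at 0.46 and 0.15, and SKIC3, a subunit of the SKI complex of RNA decay, at 0.34 and 0.24.

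The list of other interferon regulatory factors had medians of 0.0049, 0.017 and 0.0049 over 8 detected genes and none called. It also holds IRF2BP1 and IRF2BP2, which encode proteins that bind IRF2 and are not themselves such factors. IRF9, a DNA-binding subunit of the interferon-activated transcription factor complex, came closest to 2-fold, at 0.74 with DKK3 and 0.92 with GFP. Its spot read 118.4 with DKK3 and 148.5 with GFP, against 71.7 in untransfected cells. That spot lies in block 23, among the blocks that were left out in 1 alternative. IRF1 was at 0.46 and 0.31, and IRF2BP2 at -0.12 and -0.06. Of 12 detected interferon receptor and JAK-STAT genes 1 was called, USP18 with GFP, where 0.254% of all tested probes were called. The medians were -0.027, 0.086 and 0.079. USP18 was at 0.97 with DKK3 and 1.03 with GFP, just outside and just inside the 2-fold rule, and DKK3 minus GFP was -0.058. USP18 read 162.6 with DKK3 and 187.3 with GFP, against 83 in untransfected cells. STAT2 was at 0.57 with DKK3 and 0.62 with GFP.

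The interferon genes themselves are products of this pathway. Of 17 type I and type III interferon genes on the array 11 were detected on at least 1 array, and none was called in any comparison, where 0.254% to 0.292% of all tested probes were. IFNB1 read 41.8 with DKK3 and 41.3 with GFP, against 44.0 in untransfected cells, just above the limits of 36.6, 33.8 and 40.8. Its differences were 0.086 for DKK3 minus untransfected and 0.12 for GFP minus untransfected. The type III genes IFNL1 and IFNL3 were below the limit on all 3 arrays. IFNA8 read 91.6 (DKK3), 106.5 (GFP) and 114.4 (untransfected) and differed from untransfected by -0.14 with DKK3 and -0.034 with GFP. IFNA2, IFNA5, IFNA6, IFNA14, IFNA16, IFNA17, IFNE, IFNK and IFNW1 differed from untransfected by between -0.048 and 0.065 on either plasmid array. The IFNA genes are closely related in sequence, and their probes may not tell all of them apart.

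**Figure D3:**
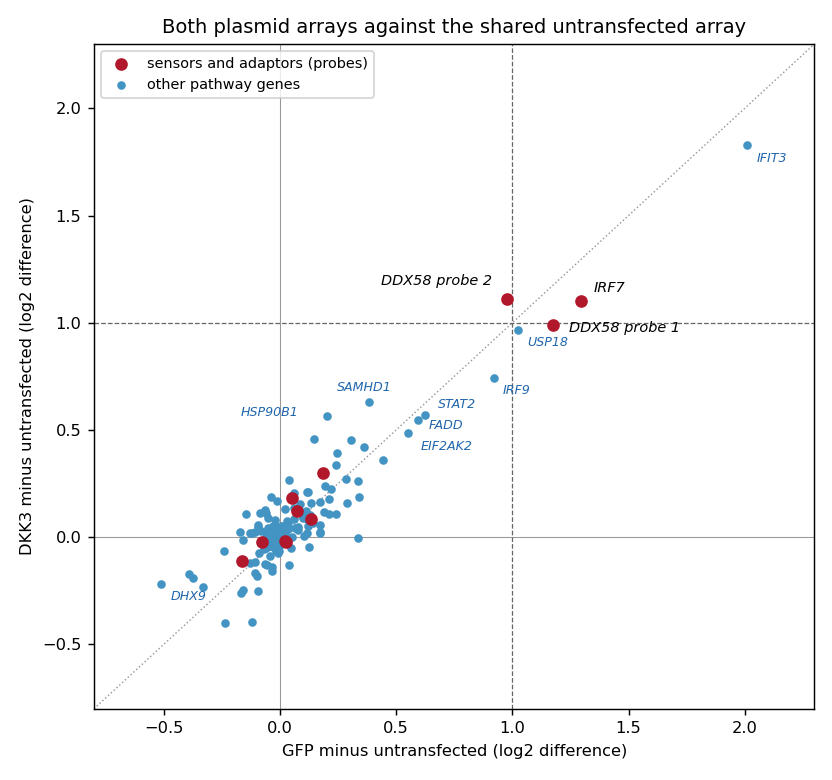
GFP minus untransfected (horizontal axis) against DKK3 minus untransfected (vertical axis), both log2 differences, for the 11 detected sensor and adaptor probes (red) and the detected genes of the other pathway lists (blue). Dashed lines mark 2-fold and the dotted line equal differences. Both axes share the untransfected array. IFIT3, IRF7 and both DDX58 probes lie furthest up, followed by USP18 and IRF9, and the other members lie between -0.16 and 0.30.

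**Figure D4:**
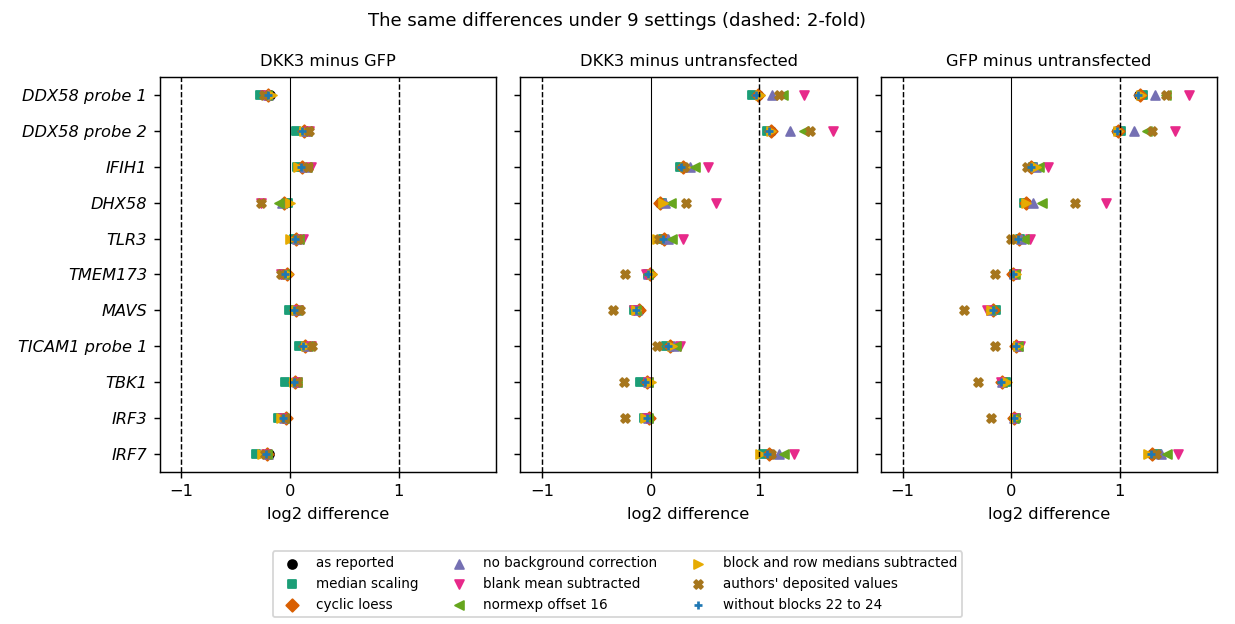
Log2 differences (horizontal axes) of the 11 detected probes under 9 settings of normalization, background and print position, 1 symbol a setting. DHX58 has 8, since its spot lies in block 24 and has no value without blocks 22 to 24. DDX58 and IRF7 keep their direction against the untransfected array in all of them, from 0.94 to 1.68, while DHX58 spreads from 0.12 to 0.87 for GFP minus untransfected.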

How the data were processed

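RNA from 3 cultures was hybridised to 3 one-colour arrays (Cy5), and titles gave the groups. Per the file headers, the values used are the median intensity of each spot, merged by the authors from several scanner gains with least-squares lines; the scanner's software was not given in the sources used here. The authors also deposited a table of intensity on a linear scale with a median of 25 per array, used as an alternative. Background was corrected with normexp (offset 50, limma 3.58.1, R 4.3.3), control spots and 6 flagged gene probes were dropped, and quantile normalization and the log2 transform followed. The arrays have no replicate, so calls follow a rule of size (2-fold) among the probes detected on at least 1 of both arrays. Of 24454 kept probes, 17579 were tested for DKK3 minus GFP, 18121 for DKK3 minus untransfected and 18076 for GFP minus untransfected. Names came from the platform annotation, of which 20231 kept probes have 1, updated through RefSeq (GRCh38.p14). No probe position or sequence was used. The steps were tested on simulated data. For the normalization, known fold changes were placed in brighter spots only, and of the members only IRF7 and TBK1 are as bright. Fold sizes of dimmer spots were not tested there. The members, the lists and the naming rule (all members, the 3 furthest genes of each list, every called gene and detected interferon gene) were chosen with earlier results of these data known.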

Additional observations from a re-analysis of the deposited data

How the results depend on the processing

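The number of sensor and adaptor probes at 2-fold stayed between 2 and 3 for GFP minus untransfected and for DKK3 minus untransfected, and at 0 for DKK3 minus GFP, under 12 alternatives of normalization, background, detection limit, fold and print position, among them the removal of blocks 22 to 24, which was added after seeing the data. The third probe, where present, was the other DDX58 probe. Of 261 single differences recomputed under 8 of these, 212 moved by less than 1 robust SD and 49 by more, 17 of them in the authors' deposited table and 14 with the mean of the blanks subtracted. Signs turned for 10, none of which had been called. IRF7 ranged from 1.26 to 1.54 for GFP minus untransfected and from 1.004 to 1.32 for DKK3 minus untransfected. Over all tested probes the calls numbered 45, 53 and 46 for DKK3 minus GFP, DKK3 minus untransfected and GFP minus untransfected. They numbered 66, 91 and 67 with an offset of 16, 115, 198 and 119 at 1.5-fold, 196, 253 and 194 with the blank mean subtracted, 34, 35 and 35 without blocks 22 to 24, and 218, 494 and 256 in the authors' deposited table, whose overall median lay at -0.252 for DKK3 minus untransfected and -0.219 for GFP minus untransfected. The split of higher and lower calls there was 115 and 379 for DKK3 minus untransfected and 107 and 149 for GFP minus untransfected, against 40 and 13 and 41 and 5 in the values reported and 34 and 1 and 33 and 2 without blocks 22 to 24. The negative deposited differences of TMEM173, MAVS, TBK1 and IRF3, and of TICAM1 probe 1 for GFP minus untransfected (-0.149), are to be read against that shift. No paired analysis was possible because each group has 1 array. Low signal over background limits DHX58, TICAM1 probe 2 and the interferon genes.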

Other observations

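The spots of IRF7, IRF3 and IRF1 lie at the same column and row of the array, 4 blocks apart from one to the next. They read 428.8, 148.0 and 533.1 on the DKK3 array, 566.3, 167.6 and 550.8 on the GFP array and 211.6, 166.4 and 424.3 on the untransfected array. The IRF3 spot thus did not follow the IRF7 spot.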
